A study of Homo sapiens with 12 samples.

Results

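The effect of cariporide on the transcriptome of MDA-MB-231 cells was measured over both glucose levels of a 2 by 2 design: 6 libraries from cells given 25 µM cariporide were compared with 6 libraries from cells without it, with glucose as an additive factor. All 12 libraries of the series enter, and the members are the 15104 of 40929 counted genes that passed a filter on low counts. MDA-MB-231 is an established triple-negative breast cancer line, labelled epithelial and wild type, and all groups were held for 48 h in their medium. The groups are NG (10 mM glucose, no cariporide), CAR (10 mM glucose with 25 µM cariporide), LG (5 mM glucose, no cariporide) and LGCAR (5 mM glucose with 25 µM cariporide), with 3 libraries each. A single dose and a single time were used, and the labels do not name what the media without the drug contained in its place. The labels number the replicates without saying that they came from separate cultures, so p-values measure the spread between these libraries, which may be technical.

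Cariporide inhibits sodium-proton exchange at the cell surface, which brings a sodium ion into the cell in exchange for a proton. In cancer cells that export much acid from glycolysis, this exchange works beside bicarbonate transporters, carbonic anhydrases, monocarboxylate transporters and the vacuolar proton pump to keep the cytosol alkaline. The drug acts on a protein, so transcript levels do not report on inhibition, and no measurement of pH or of exchange was analysed here.

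Each library held 18069004 to 24837409 counts, of which 7.10% to 11.5% came from ribosomal RNA genes. That share averaged 9.04% with cariporide and 9.07% without it (exact permutation test within glucose levels, two-sided, p = 0.97). Within each group, libraries were further apart than counting error allows (chi-square per degree of freedom 2.79 to 23.8 over 12 pairs), so none was taken for a repeat of another. Of the line markers set beforehand as high, VIM had 1611 to 1864 CPM (the count relative to the TMM-scaled library total) and CD44 641 to 726. Of those set as low, PGR had none, ESR1 at most 0.188 and CDH1 0.954 to 2.47. ERBB2 and EPCAM, also set as low, were present in every library, at 55.3 to 67.0 and 8.74 to 13.8 CPM. Of the 12 leukocyte markers 4 were at 0 in all 12 libraries (among them CD3E, MS4A1 and NKG7), and the summed level of the list was 63.3 to 65.1 CPM in NG, 58.7 to 65.9 in CAR, 72.6 to 78.6 in LG and 64.3 to 67.9 in LGCAR. Some libraries stood apart from others of their group. NG 1 and NG 3 were the furthest apart by chi-square (23.8), ahead of CAR 1 and CAR 2 (17.9) and of LG 1 and LG 3 (16.4). In CAR 1 the level of genes, relative to their mean over the libraries, dropped by 0.10 on the log2 scale for each 10-fold of gene span, whereas in CAR 2 and CAR 3 it was higher by 0.03. LG 3 had a slope of -0.06 against 0.03 in LG 1 and LG 2. Some results below are also given without CAR 1, because leaving it out moved the count of called genes as no other library did.

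No gene passed the test over both glucose levels. With edgeR's quasi-likelihood test, 0 of 15104 genes (0%) had a Benjamini-Hochberg adjusted p under 0.05, and limma-voom also called 0, while DESeq2 called 27. At an unadjusted p under 0.05 there were 2420 genes (16%), of which 1248 (8.26%) had a higher and 1172 (7.76%) a lower value with cariporide. The differences were small and their intervals narrow. The 95% interval lay wholly inside a 1.25-fold change in either direction for 69.2% of the genes, inside 1.5-fold for 86.2% and inside 2-fold for 96.6%, and 31 genes (0.205%) had an estimate past 2-fold. Without CAR 1 the same test called 1699 of 15301 genes (11.1%), 956 higher (6.25%) and 743 lower (4.86%) with cariporide. Leaving out any one of the other 11 libraries gave at most 2 called genes.

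**Figure D1:**
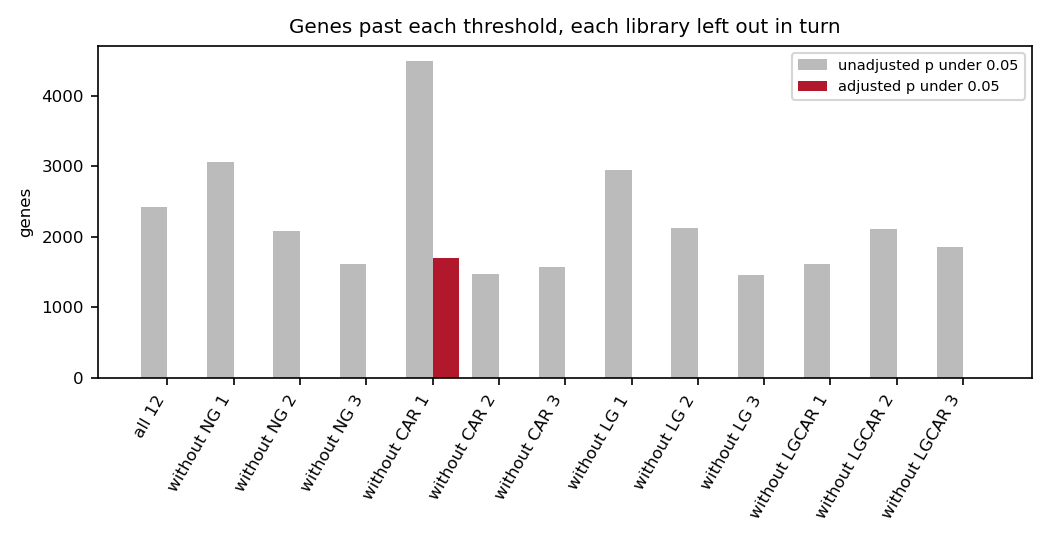
Number of genes (vertical axis) at an unadjusted p under 0.05 (grey bars) and at an adjusted p under 0.05 (red bars) in the comparison of cariporide with no cariporide, with all 12 libraries and with each library left out in turn (horizontal axis). The fit without CAR 1 has 1699 genes at an adjusted p under 0.05, and each other fit has 0 to 2.

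TXNIP was the 1 gene for which edgeR called a difference between the 2 glucose levels in the change with cariporide. TXNIP encodes thioredoxin-interacting protein, an arrestin that lowers glucose uptake, and its transcription is known to follow glucose through the sensors MondoA and ChREBP (GRCh38.p14, chr1:145992435-145996579, minus strand). Its level was 255, 259 and 278 CPM in NG (264 ± 12.5, SD, n = 3), 263, 249 and 245 in CAR (253 ± 9.33), 40.6, 49.98 and 48.6 in LG (46.4 ± 5.07), and 84.3, 79.9 and 94.6 in LGCAR (86.2 ± 7.55). The NG and CAR libraries overlapped, whereas each LGCAR library was above each LG library and far below all libraries at 10 mM. At 5 mM glucose TXNIP rose with cariporide by 0.90 on the log2 scale (SE 0.0766, edgeR adjusted p = 4.60e-05), as the 1 called gene of 15104 (0.00662%), with 1801 genes (11.9%) at an unadjusted p under 0.05. DESeq2 called 20 genes at 5 mM, and edgeR with no filter 15. At 10 mM its difference was -0.06 (SE 0.0713, edgeR adjusted p = 0.895). The 10 mM comparison had 0 called genes (0%) by edgeR, 684 (4.53%) at an unadjusted p under 0.05 and 2 by DESeq2. The test of the difference between the glucose levels gave 0.96 (SE 0.105, edgeR adjusted p = 0.00138), and TXNIP was also the 1 gene called there (0.00662%, beside 473 or 3.13% at an unadjusted p under 0.05), where DESeq2 called 5 and edgeR with no filter 2. Averaged over both levels TXNIP gave 0.38 (95% interval 0.00 to 0.76, edgeR adjusted p = 0.309), a value that stands for neither level.

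The paralog ARRDC4, another glucose-responsive arrestin, showed no detectable difference with cariporide. It had 1.72, 1.09 and 1.70 CPM in LG and 1.52, 1.63 and 1.91 in LGCAR, which overlap, against 5.27 to 6.31 in NG and 5.33 to 6.95 in CAR. Its difference at 5 mM was 0.17 (SE 0.211, edgeR adjusted p = 0.737). Of the 13 tested genes of the glucose-sensing list, 3 were higher and 3 lower at an unadjusted p under 0.05 over both levels (23.1% each, against 8.26% and 7.76% over all tested genes). TXNIP was itself 1 of the 3 higher genes, through the averaged value that stands for neither level. One of the lower ones, KLF10, a transcriptional repressor known to respond to glucose, had 38.5, 38.2 and 40.7 CPM in LG and 33.5, 32.1 and 33.8 in LGCAR, and 54.8 to 55.4 in NG against 52.4 to 55.2 in CAR. Its groups separated at 5 mM and overlapped at 10 mM, and its difference between the levels of -0.20 had an unadjusted p of 0.0141 (edgeR), with an adjusted p of 0.9999. A fit with each library's slope on gene span as a covariate left 1 of the 13 listed genes higher and 2 lower at an unadjusted p under 0.05. Over all genes the shares in that fit were 3.05% higher and 3.99% lower. Such a covariate can also take up change that goes with the drug.

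The 250 bases before the start of TXNIP and ARRDC4 are shown because these arrestin genes are known to respond to glucose. Capitals mark, in TXNIP (chr1:145996580-145996829, minus strand), 2 copies of CACGNG set 5 bases apart, the arrangement of a carbohydrate response element, and in ARRDC4 (chr15:97960453-97960702, plus strand) the E-box CACGTG. Both are from RefSeq, GRCh38.p14, printed 5′ to 3′ on the strand of the gene.
TXNIP: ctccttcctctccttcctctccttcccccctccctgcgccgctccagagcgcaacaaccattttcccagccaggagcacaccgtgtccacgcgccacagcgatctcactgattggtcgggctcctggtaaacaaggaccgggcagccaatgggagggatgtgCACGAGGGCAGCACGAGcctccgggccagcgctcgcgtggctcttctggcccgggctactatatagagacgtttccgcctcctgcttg
ARRDC4: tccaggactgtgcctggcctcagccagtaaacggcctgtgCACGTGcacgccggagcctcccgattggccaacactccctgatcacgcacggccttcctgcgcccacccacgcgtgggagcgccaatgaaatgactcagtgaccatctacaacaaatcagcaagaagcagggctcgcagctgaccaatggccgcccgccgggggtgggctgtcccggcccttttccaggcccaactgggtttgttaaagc
The paired motif, searched on both strands, was found in 16 of 27195 promoters of this length (0.0588%). Of the 11629 tested genes with a promoter entry 13 held it (0.112%), and TXNIP was the 1 among the 11 glucose-sensing genes with an entry. CACGTG was in 6.5% of all promoters, in 8.7% of those of tested genes and in 3 of those 11. A match describes the letters and is not evidence of binding. The paired motif was added after the TXNIP values were seen, and bases further upstream were not searched. Whether either motif bears on the change with cariporide was not tested.

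**Figure D2:**
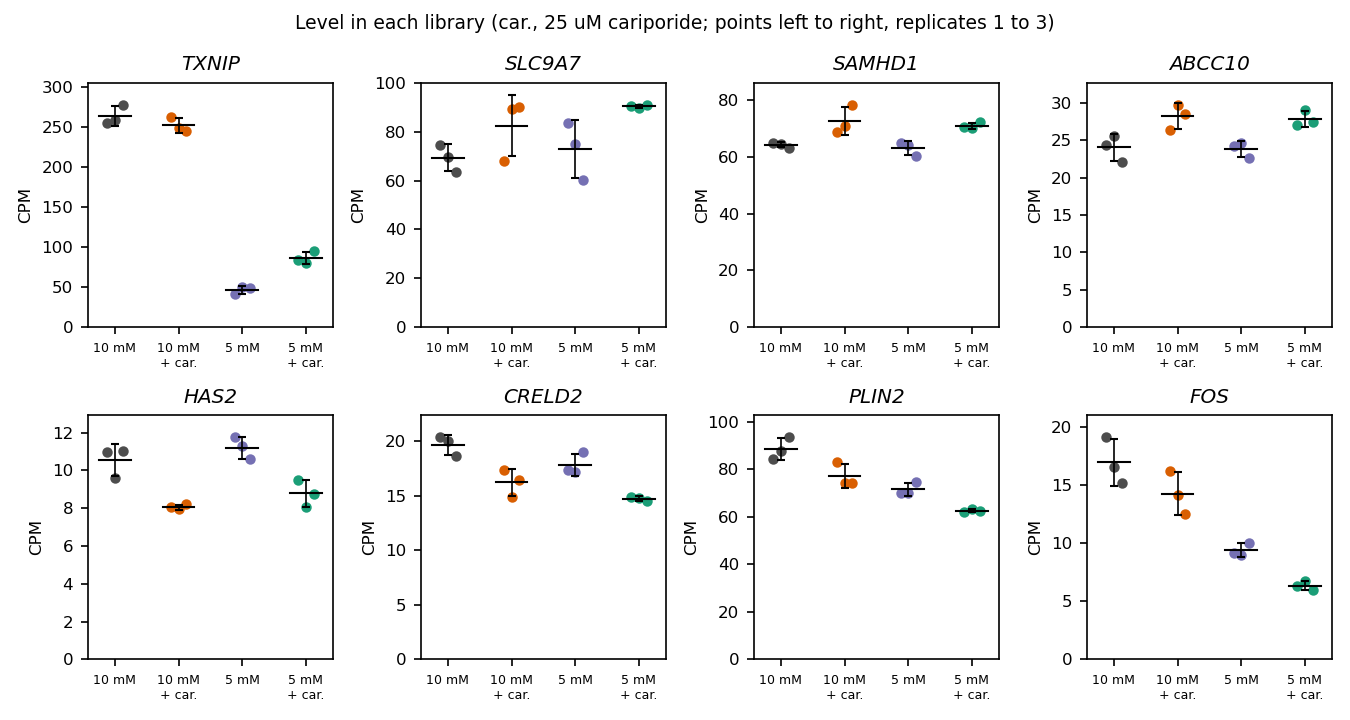
Level of 8 genes in each library, in CPM from 0 (vertical axes), for the 4 groups along the horizontal axes. Each point is 1 library, the horizontal line is the mean of 3 libraries and the error bar is the SD. TXNIP differs with cariporide at 5 mM alone, and HAS2, CRELD2, PLIN2, SAMHD1 and ABCC10 are shifted the same way at both glucose levels, with differences averaged over the levels of 0.17 (SAMHD1) to 0.37 (HAS2) in size on the log2 scale.

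Although edgeR called no gene over both levels (DESeq2 called 27, and edgeR with no filter on low counts 19), some had CPM that did not overlap between cariporide and no cariporide at 10 mM and again at 5 mM, in the same direction: 86 higher (0.569% of those tested) and 113 lower (0.748%). Of these, 153 had a symbol other than a locus number and averaged 5 CPM or more where they were higher, 51 higher and 102 lower. The 10 with the smallest p in each direction are described here as the top of that order, chosen after their values were seen and with no claim that they passed edgeR's test. Their differences at the 2 glucose levels, which share no library, are plotted against each other.

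HAS2 had the lowest p on the lower side. It encodes hyaluronan synthase 2, which makes the matrix polymer that binds CD44. Its level was 10.999, 9.57 and 11.1 CPM in NG and 8.05, 7.94 and 8.20 in CAR, and 11.8, 11.3 and 10.6 in LG against 9.48, 8.09 and 8.78 in LGCAR. Each library with cariporide was below each library without it. The difference was -0.37 on the log2 scale (SE 0.0637, 95% interval -0.50 to -0.24, edgeR adjusted p = 0.129), with -0.39 at 10 mM and -0.35 at 5 mM. Its exons overlap those of HAS2-AS1 on the other strand.

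CRELD2, which encodes a chaperone-like protein of the endoplasmic reticulum, had 20.3, 20.02 and 18.6 CPM in NG and 17.3, 14.8 and 16.4 in CAR. At 5 mM it had 17.3, 17.2 and 18.98 in LG and 14.9, 14.8 and 14.5 in LGCAR. The groups were apart at each level, and the difference was -0.28 at both (SE over both levels 0.0511, edgeR adjusted p = 0.188). PLIN2, the coat protein of lipid droplets, had 84.5, 87.8 and 93.5 CPM in NG, 83.0, 74.1 and 74.4 in CAR, 70.0, 69.9 and 74.7 in LG, and 62.1, 63.5 and 62.4 in LGCAR. CAR 1 lay just under the lowest NG library, and the LGCAR libraries were well below LG. Its difference was -0.20 (SE 0.0394, edgeR adjusted p = 0.188). The other 7 were RHOB, a small GTPase of actin and endosomes (-0.28), IGFBP1, a secreted binder of insulin-like growth factors (-0.27), BTG1, an antiproliferative cofactor (-0.24), the zinc finger gene ZNF787 (-0.20), GAR1, a protein of the box H/ACA particles that modify ribosomal RNA (-0.16), the linker histone H1-2 (-0.20) and TTC9 (-0.34). Their edgeR adjusted p lay between 0.188 and 0.230.

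On the higher side RBM14-RBM4 came first. It is a read-through of the neighbouring RNA-binding protein genes RBM14 and RBM4, and shares exons with both on the same strand, so how reads were divided among the 3 is uncertain. Its level was 4.08, 3.63 and 6.04 CPM in NG, 7.14, 7.50 and 7.17 in CAR, 3.64, 4.18 and 4.38 in LG, and 7.37, 6.57 and 5.48 in LGCAR. The libraries with cariporide were above those without at each glucose level. The difference was 0.67 (SE 0.111, 95% interval 0.43 to 0.90, edgeR adjusted p = 0.129), while RBM14 gave 0.11 (edgeR adjusted p = 0.285) and RBM4 -0.04 (edgeR adjusted p = 0.673).

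SAMHD1, which hydrolyses deoxynucleotides and restricts retroviruses, had 65.0, 64.6 and 63.4 CPM in NG, 68.9, 71.0 and 78.5 in CAR, 65.1, 64.3 and 60.4 in LG, and 70.6, 70.2 and 72.3 in LGCAR. All 6 libraries with cariporide were above all 6 without it. Its difference was 0.17 (SE 0.0377, edgeR adjusted p = 0.203). ABCC10, an ATP-dependent export pump for drugs, had 22.1 to 25.6 CPM in NG, 26.4 to 29.7 in CAR, 22.7 to 24.6 in LG and 27.0 to 29.1 in LGCAR, with a difference of 0.23 (SE 0.0475, edgeR adjusted p = 0.203). These groups did not overlap either. The other 7 were PPARA, a nuclear receptor for fatty acids (0.26), SAR1B, a GTPase of vesicles that leave the endoplasmic reticulum (0.22), BICD1, an adaptor of dynein (0.26), the zinc finger genes ZNF417 (0.34) and ZNF69 (0.31), TRANK1 (0.31) and DIPK2A (0.29). DESeq2 called 14 of the 20, with adjusted p from 0.000776 (RBM14-RBM4) to 0.0495 (TRANK1); ZNF69, BICD1, DIPK2A, GAR1, H1-2 and TTC9 were not called by it. Without CAR 1 edgeR called each of the 20, with adjusted p from 0.00702 (BTG1) to 0.0256 (DIPK2A), where 11.1% of all genes were called. These 20 were picked by their small p in the same libraries, so neither the DESeq2 calls nor those without CAR 1 are separate evidence.

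**Figure D3:**
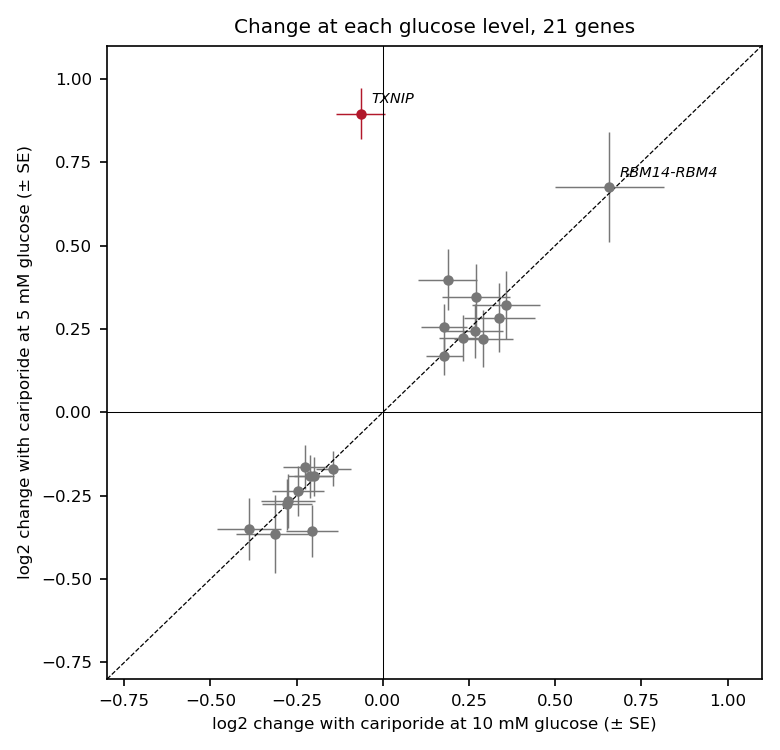
log2 change with cariporide at 10 mM glucose (CAR against NG, horizontal axis) and at 5 mM glucose (LGCAR against LG, vertical axis), each with its SE, for TXNIP (red) and the 10 higher and 10 lower genes described in the text (grey). The dashed line marks equal change. The grey points were picked for lying apart in the same direction at both levels, so their place near the line follows from that choice; TXNIP lies at -0.06 and 0.90.

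Over all 15104 genes the changes at 10 mM and at 5 mM, which rest on different libraries, had a Spearman correlation of 0.34 across genes, and 66.3% had the same sign. Genes are not independent replicates, and the levels of all genes within a library share that library's depth and preparation. Of the 684 genes at an unadjusted p under 0.05 at 10 mM and the 1801 at 5 mM, 122 were in both. That is 15.4% of the first, where 11.9% of all tested genes were past this threshold at 5 mM. It is 5.83% of the second, where 4.53% of all tested genes were past it at 10 mM. Among the 122, 105 had the same sign.

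The changes were tied to gene span, the distance from a gene's start to its end including introns. The median difference with cariporide was -0.05 on the log2 scale in the quintile of genes with the shortest span (median 4367 bases) and 0.06 in the quintile with the longest (median 148454 bases). The shares at an unadjusted p under 0.05 moved with it: 3.05% higher and 12.99% lower among the shortest, and 15.6% higher and 2.68% lower among the longest. Both glucose levels had this order, from -0.04 to 0.04 at 10 mM and from -0.06 to 0.07 at 5 mM. The slope of level on log10 span within a library was -0.01, -0.05 and -0.07 in NG, -0.10, 0.03 and 0.03 in CAR, 0.03, 0.03 and -0.06 in LG, and 0.07, 0.05 and 0.04 in LGCAR. The LGCAR libraries were all above LG, while CAR 1 was the lowest of all 12 libraries. With against without cariporide the slopes differed by 0.04 (exact permutation test within glucose levels, 400 arrangements, two-sided, p = 0.115). With so few libraries the test does not settle whether the slopes differ with cariporide. When each library's slope entered the fit as a covariate, the medians of the quintiles came to 0.00 each. The slopes were taken from these same levels, so medians near 0 follow from how the covariate was made. The slopes averaged -0.02 without and 0.02 with cariporide, so here and below the covariate can also take up change that goes with the drug. In that fit 1064 genes (7.04%) had an unadjusted p under 0.05, with 461 higher (3.05%) and 603 lower (3.99%). In the same fit 1 gene was called by edgeR, RBM14-RBM4 (adjusted p = 0.0177). What sets the slopes was not tested.

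**Figure D4:**
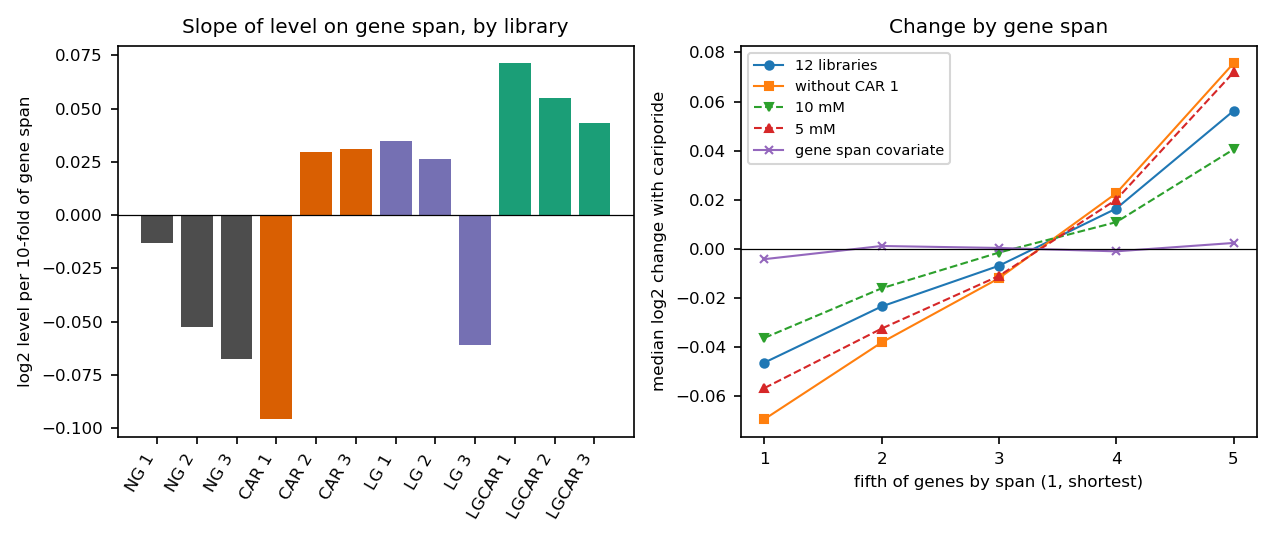
Left, slope of log2 level on log10 gene span in each of the 12 libraries (bars, coloured by group). Right, median log2 change with cariporide (vertical axis) in quintiles of genes ordered by span (horizontal axis) with all libraries, without CAR 1, at each glucose level, and with the slope as a covariate. CAR 1 has the lowest slope, and the median change goes from -0.05 to 0.06 over the quintiles with all libraries. With the covariate it stays near 0, which follows from taking the slopes from these same levels.

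The next genes are those of pH control, the process on which cariporide acts. Their counts at an unadjusted p under 0.05 stand against 8.26% higher and 7.76% lower over all tested genes. Of 29 counted genes of the sodium-proton exchange list, 21 were tested, with a median of 0.02 against 0.00 over all tested genes, 1 higher and 1 lower (4.76% each), near the shares over all genes. The higher one was SLC9A7, the exchanger of the trans-Golgi network. It had 74.9, 69.6 and 63.8 CPM in NG, 68.2, 89.5 and 90.3 in CAR, 83.6, 74.9 and 60.1 in LG and 90.6, 89.8 and 91.2 in LGCAR. Its groups were apart at 5 mM, and at 10 mM CAR 1 lay among the NG libraries. The difference was 0.28 (SE 0.0845, edgeR adjusted p = 0.253), and 0.34 without CAR 1 (edgeR adjusted p = 0.0176). CHP1, a calcineurin-like protein that binds sodium-proton exchangers, gave 0.14 (edgeR adjusted p = 0.335).

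Among 15 tested genes of bicarbonate transport and carbonic anhydrases 1 was higher and 2 were lower at an unadjusted p under 0.05, around a median of -0.01. CA9, the hypoxia-induced carbonic anhydrase of the cell surface, had 8.44, 9.48 and 10.8 CPM in NG, 9.85, 8.46 and 7.87 in CAR, 8.99, 10.1 and 10.5 in LG and 6.88, 8.14 and 7.50 in LGCAR. It was lower with the drug in all libraries at 5 mM and overlapped at 10 mM (-0.26 over both, SE 0.0852, edgeR adjusted p = 0.257). SLC4A7, a sodium-bicarbonate cotransporter that loads the cell with base, gave 0.12 (edgeR adjusted p = 0.298). The 17 tested genes of the sodium pump and the chloride cotransporters had 3 higher and 1 lower with a median of 0.03. Among the higher ones were the cotransporter SLC12A2 (0.25) and its regulatory kinase WNK1 (0.21), and the lower one was FXYD5, a subunit that modulates the sodium pump (-0.14), with edgeR adjusted p of 0.265 to 0.308. The 21 genes of the vacuolar proton pump had 0 higher and 2 lower, and the 13 genes of lactate handling 0 higher and 1 lower, which was BSG, the chaperone of the monocarboxylate transporters (-0.09, edgeR adjusted p = 0.300).

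Without CAR 1, 4 of the 17 sodium pump and chloride cotransporter genes were called higher and 1 lower, 2 of 21 sodium-proton exchange genes higher (SLC9A7 and CHP1), and 2 of 15 bicarbonate genes higher and 1 lower, where the shares over all genes were 6.25% higher and 4.86% lower. With the slope on gene span in the fit, CHP1 gave 0.01, SLC4A7 0.03, SLC12A2 0.07 and WNK1 0.06, and SLC9A7, at 0.28 without it, gave 0.13.

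The glycolysis list (28 tested genes) had a median of 0.00, with 4 higher (14.3%) and 2 lower (7.14%) at an unadjusted p under 0.05. With the slope on gene span in the fit 2 were higher and 1 lower, against 3.05% and 3.99% over all genes. The 4 named from the higher side were HK2, the hexokinase of many tumours (0.14), PDK3, which inhibits pyruvate dehydrogenase (0.17), and PFKFB3 and PFKFB4, which set the level of fructose 2,6-bisphosphate (0.09 and 0.13). GAPDH was lower (-0.12). With that slope they gave 0.03 (HK2), 0.08 (PDK3), 0.06 (PFKFB3), 0.15 (PFKFB4) and -0.03 (GAPDH). HK2 had 92.3, 86.2 and 83.3 CPM in NG, 83.0, 99.7 and 99.5 in CAR, 91.0, 90.5 and 72.9 in LG, and 96.5, 94.3 and 97.4 in LGCAR. It separated at 5 mM, and at 10 mM CAR 1 was below all NG libraries. The edgeR adjusted p of these genes were 0.257 to 0.285.

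Several lists had more genes on the lower side than the 7.76% over all genes, among them stress and growth factor response genes (25% to 51.9% in the lists below), ribosomal proteins (55.7%) and the lineage list (52.6%). The lists were chosen with earlier results of these data known, and no test was made over them. Of the genes first named in the lists below, DESeq2 called GDF15, CXCL1, SLC3A2, FOS and HSP90B1 over both levels. The DESeq2 adjusted p went from 0.0181 (GDF15) to 0.0499 (HSP90B1), and edgeR with no filter called FOS (adjusted p = 0.0306). These genes were chosen after their values were seen. Of 24 tested genes of the unfolded protein response, which raises the folding capacity of the endoplasmic reticulum, 9 were lower and 1 higher at an unadjusted p under 0.05, with a median of -0.07. HSPA5, the main chaperone of that compartment (BiP), gave -0.11 (edgeR adjusted p = 0.257), HSP90B1, its HSP90 form, -0.11 (0.251 likewise adjusted), and HERPUD1, a part of the degradation machinery, -0.14 (0.249 likewise adjusted). HERPUD1 had 132, 134 and 148 CPM in NG, 131, 118 and 131 in CAR, 118, 120 and 133 in LG, and 111, 110 and 110 in LGCAR. Its groups did not overlap at either level, although CAR 1 and CAR 3 lay just under the lowest NG library. With the slope on gene span in the fit, 10 of the 24 were lower and 0 higher against 3.99% and 3.05% over all genes.

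The promoters of CRELD2, HSPA5 and HSP90B1 are shown because the stress element was common in this list. Capitals mark the endoplasmic reticulum stress element (CCAAT and CCACG, 9 bases apart) on either strand, in the 250 bases before the RefSeq start (GRCh38.p14, 5′ to 3′ on the gene's strand): CRELD2 at chr22:49918384-49918633 (plus strand), HSPA5 at chr9:125241344-125241593 (minus strand) and HSP90B1 at chr12:103930160-103930409 (plus strand).
CRELD2: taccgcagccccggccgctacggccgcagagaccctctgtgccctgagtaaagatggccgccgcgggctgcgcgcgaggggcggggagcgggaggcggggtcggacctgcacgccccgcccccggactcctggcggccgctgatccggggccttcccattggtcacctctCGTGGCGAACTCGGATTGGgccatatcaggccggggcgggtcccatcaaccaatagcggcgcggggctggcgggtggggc
HSPA5: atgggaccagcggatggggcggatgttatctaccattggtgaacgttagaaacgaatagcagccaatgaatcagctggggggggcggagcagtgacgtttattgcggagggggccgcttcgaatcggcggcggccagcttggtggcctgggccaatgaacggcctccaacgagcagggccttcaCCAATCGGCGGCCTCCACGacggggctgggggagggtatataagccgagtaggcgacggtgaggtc
HSP90B1: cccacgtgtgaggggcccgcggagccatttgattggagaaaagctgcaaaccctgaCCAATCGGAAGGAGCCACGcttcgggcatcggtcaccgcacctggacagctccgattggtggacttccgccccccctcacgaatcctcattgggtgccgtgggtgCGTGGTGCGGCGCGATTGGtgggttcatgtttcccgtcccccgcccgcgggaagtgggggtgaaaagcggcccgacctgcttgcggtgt
The element was in 6 of 23 promoters of the list (26.1%), in 22 of all 27195 (0.0809%) and in 14 of the 11629 of tested genes (0.12%). The list holds genes long known for this element, so the share describes the list and not the action of the drug.

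Of 32 tested targets of ATF4, the transcription factor of the amino acid and integrated stress response, 15 were lower and 1 higher with a median of -0.09. SLC3A2, the heavy chain of amino acid transporters, had 316, 310 and 331 CPM in NG, 307, 282 and 286 in CAR, 264, 241 and 269 in LG, and 230, 227 and 232 in LGCAR. Its libraries with cariporide were below those without at each level (-0.15, SE 0.0355, edgeR adjusted p = 0.230). ATF4 itself gave -0.18, the asparagine synthetase gene ASNS -0.12, the mitochondrial serine enzyme gene SHMT2 -0.14 and the stress cytokine gene GDF15 -0.40, each with an edgeR adjusted p of 0.249. GDF15 had 40.1, 34.3 and 36.2 CPM in NG, 36.8, 27.9 and 28.9 in CAR, 47.1, 46.5 and 61.5 in LG and 33.3, 37.6 and 34.1 in LGCAR, apart at 5 mM and overlapping at 10 mM through CAR 1. Of 20 tested tRNA synthetase genes, which charge tRNAs with amino acids and are partly under ATF4, 8 were lower and 0 higher. MARS1 and SARS1, for methionine and serine, gave -0.11 and -0.14 (edgeR adjusted p = 0.249 for each). Exons of MARS1 overlap those of DDIT3, a gene of the ATF4 list, on the other strand. The heat shock list had 8 lower and 0 higher of 20 tested, with DNAJB1 at -0.10 and HSPB1 at -0.18 (edgeR adjusted p = 0.257 and 0.253). With the slope on gene span in the fit the lower counts were 9 of 32, 6 of 20 and 9 of 20 for these 3 lists, against 3.99% over all genes.

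Of 21 tested immediate early genes, which growth factor and stress signals switch on within minutes, 10 were lower and 0 higher, with a median of -0.11. FOS, a subunit of AP-1, had 19.2, 16.6 and 15.2 CPM in NG, 16.2, 14.1 and 12.5 in CAR, 9.20, 9.0039 and 10.1 in LG, and 6.34, 6.74 and 5.96 in LGCAR. The 5 mM groups were apart, and at 10 mM CAR 1 lay within the NG range. Its difference was -0.38 (SE 0.0838, edgeR adjusted p = 0.203), with -0.25 at 10 mM and -0.57 at 5 mM, and the difference between the levels had an unadjusted edgeR p of 0.0555. FOSB gave -0.44 (edgeR adjusted p = 0.249). Of 20 tested feedback genes of the ERK pathway 5 were lower and 1 higher, among them the phosphatases DUSP1 (-0.26) and DUSP5 (-0.16), each with an edgeR adjusted p of 0.239. The immediate early list had a median span of 4918 bases. In the fit with the slope on gene span, 6 of the 21 immediate early and 4 of the 20 ERK feedback genes were lower. In neither list was any higher in that fit, and over all genes the shares were 3.99% lower and 3.05% higher.

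Of 27 tested NF-κB targets and chemokines 14 were lower and 0 higher, the list with the lowest median of those in the plot of list medians, -0.14. The median was -0.03 at 10 mM and -0.25 at 5 mM; the difference of these medians was not tested. TNFAIP3, a deubiquitinase that ends NF-κB signalling, had 25.8, 22.8 and 22.8 CPM in NG, 21.8, 23.5 and 22.04 in CAR, 35.4, 32.7 and 38.7 in LG, and 27.6, 26.8 and 26.0 in LGCAR. It overlapped at 10 mM, and each LGCAR library was below each LG library. Its differences were -0.09 and -0.41 at the 2 levels, and the difference between them of -0.32 had an unadjusted edgeR p of 0.00613 and an adjusted p of 0.9999. NFKBIA, the inhibitor of NF-κB, gave -0.19, the neutrophil chemokine gene CXCL1 -0.35 and the cytokine gene IL11 -0.16 over both levels (edgeR adjusted p = 0.249 for each). LG was the group with the highest summed leukocyte marker list (given above), of whose 12 genes 3 passed the filter on low counts. CD3E, MS4A1 and NKG7 were at 0. The summed fibroblast, endothelial and adipocyte lists overlapped between LG and LGCAR (fibroblasts 27.2 to 29.9 and 29.1 to 29.9 CPM). The part of other cells in these values was not tested. With the slope on gene span in the fit, 5 of the 27 were lower at an unadjusted p under 0.05 and 0 higher, against 3.99% and 3.05% over all genes.

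**Figure D5:**
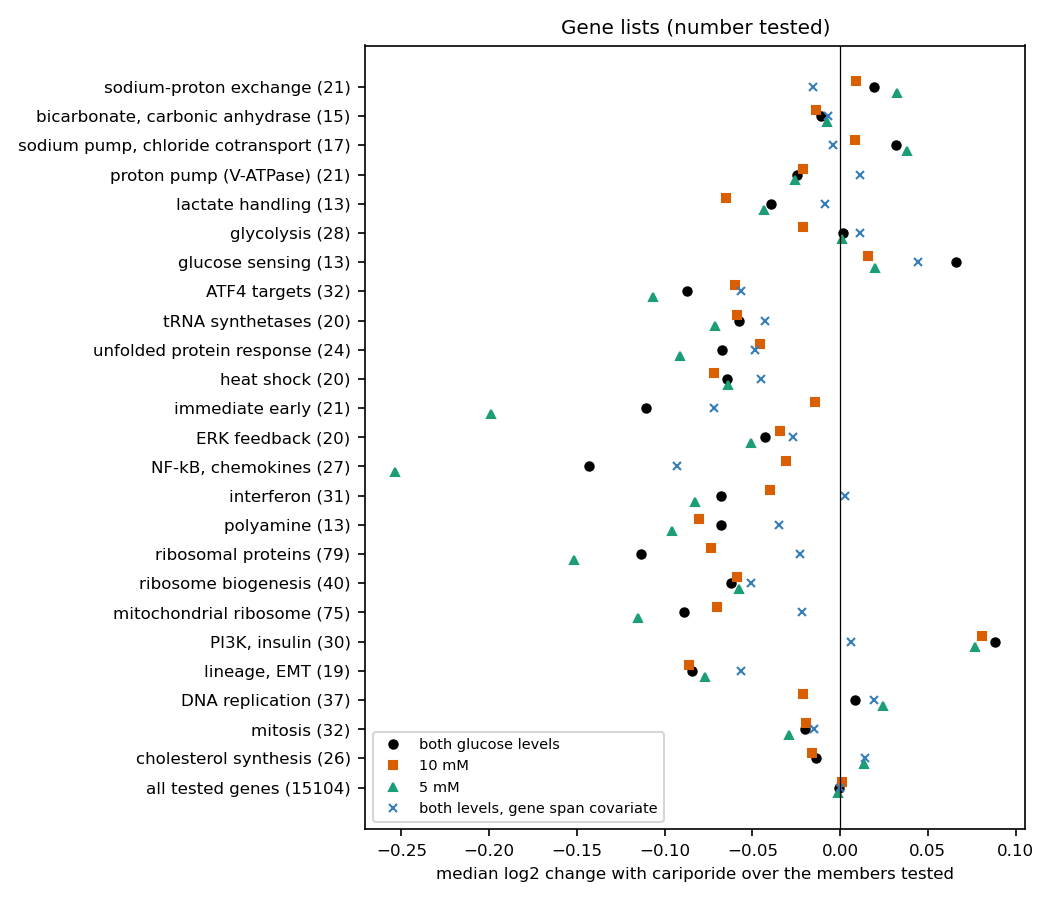
Median log2 change with cariporide (horizontal axis) over the tested members of 24 gene lists and over all tested genes (vertical axis, number tested in brackets): over both glucose levels (circles), at 10 mM (squares), at 5 mM (triangles), and over both levels with the slope on gene span as a covariate (crosses). The NF-κB and immediate early lists have medians of -0.25 and -0.20 at 5 mM, and the ribosomal protein median goes from -0.11 to -0.02 with the covariate.

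Of the 79 ribosomal protein genes, which are short and highly expressed, 44 were lower and 0 higher at an unadjusted p under 0.05. Their median was -0.11 (-0.07 at 10 mM and -0.15 at 5 mM). Without CAR 1, 57 of the 79 were called lower, against 4.86% of all genes. The median span of the list was 5011 bases, against 27379 over all tested genes, and with the slope on gene span in the fit 8 of the 79 were lower, with a median of -0.02. The 75 mitochondrial ribosome genes had 21 lower and 0 higher (median -0.09), and 4 lower with the covariate. The 40 ribosome biogenesis genes had 12 lower and 1 higher (median -0.06), and 11 lower with it. Over all genes 3.99% were lower with the covariate.

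Among the lists in the plot of medians, PI3K and insulin signalling had the highest share on the higher side, 8 of 30 genes against 8.26% over all genes, with 2 lower and a median of 0.09. IGF1R and INSR, the receptors for insulin-like growth factor 1 and insulin, gave 0.24 and 0.17, and PIK3R1, the regulatory subunit of PI3K, gave 0.23 (edgeR adjusted p = 0.257, 0.257 and 0.282). IGF1R had 40.3, 34.1 and 36.6 CPM in NG, 35.6, 44.1 and 46.3 in CAR, 46.1, 41.8 and 33.6 in LG, and 48.8, 47.6 and 52.9 in LGCAR. Its groups were apart at 5 mM, and CAR 1 lay in the NG range. CITED2, a coactivator that FOXO factors are known to raise, gave -0.18 (edgeR adjusted p = 0.247). The median span of this list was 96913 bases, and with the slope in the fit its median was 0.01. In that fit 1 of the 30 was higher and 2 lower, against 3.05% and 3.99% over all genes.

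In the smaller lists the counts were 6 lower and 0 higher of 13 polyamine genes, with the rate-limiting enzyme ODC1 at -0.16 (112, 107 and 112 CPM in CAR against 119, 131 and 132 in NG) and DHPS, which starts the hypusine modification of a translation factor, at -0.14. Their libraries with cariporide were below those without at each level, in places narrowly. At 5 mM the highest LGCAR library had 104.5 CPM of ODC1 and the lowest LG library 105.3. For DHPS at 10 mM, CAR 1 had 51.3 CPM and NG 1 had 51.5. The edgeR adjusted p were 0.239 (ODC1) and 0.249 (DHPS). The lineage and mesenchymal list had 10 lower and 0 higher of 19, among them the transcription factor SNAI2 (-0.19), the keratin KRT18 (-0.12), whose exons overlap KRT8 on the other strand, and fibronectin, FN1 (-0.08), with edgeR adjusted p of 0.245 to 0.271. Of the 19, 13 were below 0 and 6 above it. With the slope on gene span in the fit, 2 of the 13 polyamine genes and 6 of the 19 lineage genes were lower, against 3.99% over all genes. The interferon list had 2 higher and 6 lower of 31, with the antiviral enzyme OAS2 at 0.20 and its relative OASL at -0.24, each with an edgeR adjusted p of 0.239. In the fit with the slope on gene span 2 of the 31 were higher and 2 lower, against 3.05% and 3.99% over all genes.

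Genes of the cell cycle and of sterol synthesis had counts near or under those of all genes. The 37 DNA replication genes had 3 higher and 0 lower (median 0.01), the 32 mitosis genes 1 higher and 3 lower (median -0.02), and the 26 cholesterol synthesis genes 1 higher and 0 lower (median -0.01). On counts simulated for each gene on its own, with that gene's spread in these 12 libraries, the same test recovered 43 of 50 genes changed 1.25-fold. It recovered 48 of 50 changed 1.5-fold, and all of those changed 2-fold or 4-fold. The changed genes averaged 5 CPM or more. Such counts lack the variation that many genes of a library share, such as the slopes on gene span. The recovered shares therefore do not tell how often such changes would be called in the real libraries.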

How the data were processed

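RNA was sequenced from 12 libraries made with a directional kit, per the labels' protocols. The authors deposited whole-number counts per gene and library; fastp, STAR, Salmon, GATK and GRCh38 appear in the submitters' processing notes, and the sources used here give no versions, annotation or strand setting. Counts were filtered (filterByExpr, 4 groups), scaled (TMM) and fitted with edgeR 4.0.16 in R 4.3.3 (robust quasi-likelihood; glucose additive, or 1 mean per group for single levels and the interaction), with Benjamini-Hochberg adjustment over 15104 genes and calls at 0.05. The common biological coefficient of variation was 6.93%. Alternatives used limma 3.58.1 and DESeq2 1.42.0. The test was checked on counts simulated for each gene on its own, without variation shared within a library. There 6.37% of calls were unchanged genes. Intervals and SEs come from the fit.

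The rule named TXNIP, a further gene that is not reported here, up to 10 called genes per direction with CPM that did not overlap, the 2 called genes of smallest p in lists with 3 or more called, and the 3 strongest interactions. As no gene was called, it named none beyond those 2, and all other genes named were chosen after their values were seen. Members and gene lists were chosen with earlier results of these data known. Spans and promoters are from RefSeq (GRCh38.p14), exon overlaps from GENCODE 29. Besides the overlaps given above, exons of further named genes overlap other genes. Among them, on the other strand, are SHMT2 (NDUFA4L2), ABCC10 (DLK2), SAMHD1 (TLDC2) and SAR1B (SEC24A). BTG1 and LINC01619 overlap on the same strand. A span was found for 14940 tested genes (98.9%). Motifs were searched on both strands: the E-box, the ATF4 with C/EBP site, the AP-1 site, the serum response, endoplasmic reticulum stress, sterol and hypoxia elements, and the paired CACGNG, which was added after the TXNIP values were seen.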

Additional observations from a re-analysis of the deposited data

Results flagged for a closer look

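TXNIP changed differently with cariporide at the 2 glucose levels: the change at 5 mM minus that at 10 mM was 0.96 on the log2 scale (SE 0.105, edgeR adjusted p = 0.00138). Its value lay between 0.86 and 1.01 over the 22 alternatives run for it, and it was called in all 22, with the highest adjusted p at 0.0461.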

How the results depend on the processing

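With each library left out in turn, the count over both glucose levels was 0 to 1699 (without CAR 1), that at 10 mM 0 to 2, that at 5 mM 1 to 3, the interaction 1 to 3, and the count at an unadjusted p under 0.05 over both levels 1465 to 4485 (without CAR 1). With no filter the counts were 19 over both levels and 15 at 5 mM, and with DESeq2 they were 27, 2 at 10 mM, 20 at 5 mM and 5 for the interaction. With no filter the interaction had 2. The slope on gene span as a covariate, chosen after seeing the data, gave 1 over both levels, 2 at 10 mM, 10 at 5 mM, 9 for the interaction and 1064 at an unadjusted p under 0.05; without CAR 1 as well it gave 2 and 992. One gene was called with the group means averaged (TXNIP), with the 5 mM libraries only, and with ribosomal RNA content as a covariate, and 2 without NG 1 and LGCAR 3. The 10 mM libraries only gave 545 at an unadjusted p under 0.05. The cause of these shifts was not tested. In direction, TXNIP was -0.0591 with the 10 mM libraries only, ARRDC4 was -0.00276 without CAR 1 (up to 0.12 with other libraries left out), RBM4 was 0.0283 with the slope as a covariate and 0.0614 without CAR 1 as well, and HK2 was -0.00343 without CAR 1 and with the slope as a covariate. No pairing by replicate number was seen in the levels (18 same-number pairs, r from -0.11 to 0.14, with 3 of 12 libraries closest to their own number). With 3 libraries per group, these correlations cannot tell whether same-number libraries shared a culture or a day. With the replicate number as a block 0 genes were called over both levels.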
